A study of Saccharomyces cerevisiae with 16 samples.

Results

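The IZH family of *Saccharomyces cerevisiae* has 4 genes, *IZH1* (YDR492W), *IZH2* (YOL002C), *IZH3* (YLR023C) and *IZH4* (YOL101C), and all 4 are among the 6844 genes of the expression tables. *IZH1*, *IZH2* and *IZH3* are described because they belong to the family, whereas *IZH4* was chosen by its measured TPM, which was higher in *vph1∆* than in wild-type cells, so its values in every comparison with *vph1∆* or with wild type are given as a description without a test. RNA was sequenced from *atg18∆*, *fab1∆*, *vph1∆* and wild-type cells, with 4 libraries per strain and 16 in all. Each deletion carries a NatMX marker (atg18∆::NatMX, fab1∆::NatMX or vph1∆::NatMX). All 4 strains, wild type included, derive from DHY211 and carry SAL1+ and HAP1+, together with CAT5(91M), MIP1(661T) and MKT1(30G), and also RME1(INS-308A) and TAO3(1493Q). The strains are haploids obtained by sporulation, and the number of independent isolates per deletion is not given in the sources used here. Cells were grown at room temperature in SDC, a synthetic defined medium with dextrose and amino acids, and collected at an OD600 of 0.05, a low density meant to limit acidification of the medium.

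Izh proteins are membrane proteins of the family that includes the animal adiponectin and progestin receptors. In yeast they have been tied to zinc homeostasis, and members respond to zinc through the regulator Zap1 and to fatty acids or low oxygen through regulators that include Mga2. Izh2 has also been described as the yeast receptor for osmotin, a plant defence protein. Vph1 is the subunit that places the proton pump of the yeast vacuole, the v-ATPase, in the vacuolar membrane, and zinc is stored in the vacuole by transporters that use the proton gradient. Fab1 is the kinase that makes PtdIns(3,5)P2 on that membrane, and Atg18 binds this lipid and regulates its level.

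The 4 genes lie at separate places in the genome, each with 1 coding exon (RefSeq annotation of build R64, which is SacCer3). *IZH1* lies on the plus strand at chrIV:1434924-1435874, with 951 coding bases. *IZH2* lies on the minus strand at chrXV:323411-324364, with 954 coding bases. *IZH3* lies on the minus strand at chrXII:185498-187129 and is the longest, with 1632 coding bases. *IZH4* lies on the minus strand at chrXV:126982-127920, with 939 coding bases. The longest run of bases that any pair of the coding sequences shares is 10 to 12 bases, and no pair shares a stretch of 31 bases. Coding reads assigned by matches of that length are therefore kept apart between members.

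The sequence before the start codon is shown for *IZH4*, whose level stood furthest from wild type, and for *IZH1*, the most abundant member in *vph1∆*. Each run covers the bases from 300 to 51 before the start codon on the coding strand, at chrXV:127971-128220 (minus) for *IZH4* and chrIV:1434624-1434873 (plus) for *IZH1*, from RefSeq R64. Capitals mark TATAAA, a form of the TATA box, on the coding strand. The *IZH1* run does not hold TATAAA on either strand, and other forms of the box were not searched for.
IZH4: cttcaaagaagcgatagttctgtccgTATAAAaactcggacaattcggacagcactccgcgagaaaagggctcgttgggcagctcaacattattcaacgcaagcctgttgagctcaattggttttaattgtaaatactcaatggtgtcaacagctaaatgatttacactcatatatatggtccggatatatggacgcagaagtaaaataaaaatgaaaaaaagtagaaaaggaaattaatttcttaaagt
IZH1: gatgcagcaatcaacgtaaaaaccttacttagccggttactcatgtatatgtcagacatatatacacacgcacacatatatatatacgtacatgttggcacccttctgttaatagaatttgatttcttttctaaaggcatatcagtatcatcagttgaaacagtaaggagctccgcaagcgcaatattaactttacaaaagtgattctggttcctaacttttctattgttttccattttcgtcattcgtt

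The 300 bases before the start codon were searched on both strands for exact matches to 4 motifs. Variant sites were not sought, so absence of a match does not show that a regulator has no site there. The zinc-responsive element, to which Zap1 binds and whose letters stand in capitals in the *ZRT1* sequence below with any base allowed at its middle position, was in 0 of the 4 members and in 0.0997% of 6020 windows. The low-oxygen response element ACTCAACAA was in 0 members and in 0.183% of windows. CCCTC, a motif tied to overexpression of *IZH2*, was in 0 members and in 22.6% of windows, and CCCCT, the stress response element, was in 0 members and in 22.2%. In 800 bases, a length added after the shorter windows were seen, the 4 motifs were again in 0 members, against 0.216%, 0.814%, 51.1% and 48.1% of 6016 windows, in the order of naming. TATAAA, also added after the first result was seen, was in 2 members at 300 bases, *IZH3* and *IZH4*, and in 48.4% of windows. Elements of this kind are shown in capitals from *ZRT1*, which encodes the high-affinity zinc transporter, at chrVII:20765-20793, with the element 204 bases before the start codon, and from *OLE1*, which encodes the fatty acid desaturase, at chrVII:398276-398302, with the element 343 bases before it (both on the plus strand, RefSeq R64).
ZRT1: acatatttgACCTTGAAGGTcatggaaag
OLE1: acgttgaacACTCAACAAaccttatct

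Expression is given as TPM, a measure of transcript abundance in which the reads of a transcript are divided by its length and scaled to the same total in every library. This unit keeps no count of reads, so sequencing depth cannot be given and errors are the SD over the 4 libraries of each strain. The labels call these biological replicates, and p-values measure the spread between them, although by the methods some share a day of growth. Wild-type replicate 3 stood apart. Its 10 most abundant genes held 31.2% of all TPM, against 14.4 to 15.9% in the other 15 libraries, and it had 6091 genes at a TPM of 1 or more, where the others had 6329 to 6471. The methods state that a wild-type sample was removed for RNA quality without naming it. All libraries were used here, all 4 IZH genes passed the minimum mean TPM of 1 set for testing, and the main values are also given without this library. The deleted gene was low in its own strain, at no more than 0.0106 TPM for *ATG18* in *atg18∆* and 0.191 TPM for *VPH1* in *vph1∆*, whereas *FAB1* remained at 1.28 to 1.58 TPM in *fab1∆*, against 1.77 to 3.55 TPM in wild type. The 6 a-specific genes summed to between 12886 and 25187 TPM over the 16 libraries and the 4 alpha-specific genes to between 8.45 and 23.4 TPM, so a-specific genes were high and alpha-specific genes low in every library.

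*IZH4* was the least abundant member in wild-type cells and the one that stood furthest from wild type in *vph1∆*. Its TPM was 20.7, 25.0, 15.3 and 14.5 in *vph1∆* replicates 1 to 4 and 2.36, 1.88, 2.35 and 3.00 in wild-type replicates 1 to 4. Every *vph1∆* library was above every wild-type library, with a mean of 18.9 ± 4.90 TPM in *vph1∆* and 2.39 ± 0.460 TPM in wild type (SD, n = 4 each), a ratio of 7.89. In these bulk cultures, a higher level per cell and a larger share of cells with the transcript cannot be told apart. On the scale of log2(TPM + 1), which is used for all fold changes and understates those of genes with low values, *IZH4* was higher by 2.53 (SE 0.18), the second highest fold change (rank 2) of 6404 genes tested. With a pseudocount of 0.1 the value was 2.91 and with 5 it was 1.67. In TPM, the wild-type level of *IZH4* did not hinge on replicate 3, and without that library the fold change was 2.52. Divided by the median TPM of the genes tested in each library, *IZH4* had 0.290 in wild-type replicate 3. It had 0.155, 0.123 and 0.178 in wild-type replicates 1, 2 and 4. The *vph1∆* libraries fell in pairs, and the difference was 2.93 within replicates 1 and 2 and 2.12 within replicates 3 and 4, each from 2 libraries per strain. The labels do not say which libraries were grown on the same day.

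*IZH1* rose in *vph1∆*. Its TPM was 76.1, 96.3, 71.1 and 67.4 in *vph1∆* and 44.6, 46.3, 19.5 and 52.0 in wild type. All 4 *vph1∆* libraries were above all 4 wild-type libraries, and the lowest wild-type value was that of replicate 3. The log2 fold change was 0.99 (SE 0.22, adjusted p = 0.0154), from a two-sided limma test on the 16 libraries with Benjamini-Hochberg adjustment over the 6404 genes whose TPM averaged 1 or more. The median log2 fold change of all genes in this comparison was 0.27, so that most genes lay above wild type, and it was 0.063 without wild-type replicate 3. Without that library *IZH1* averaged 77.7 TPM in *vph1∆* and 47.6 ± 3.89 TPM in wild type (SD, n = 3), and its log2 fold change was 0.68 (adjusted p = 0.000244). After scaling of the libraries to a common median, called median scaling below, it was 0.69 (adjusted p = 0.000651). The call was lost without *vph1∆* replicate 2 (0.89, adjusted p = 0.0708) and in a fit of the 8 libraries of this comparison alone (adjusted p = 0.252).

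*IZH2* also rose in *vph1∆*. Its TPM was 65.9, 78.6, 63.7 and 62.8 in *vph1∆* and 37.7, 41.8, 27.7 and 50.2 in wild type. The ranges did not overlap, and the log2 fold change was 0.79 (SE 0.15, limma adjusted p = 0.00509). Without wild-type replicate 3 it was 0.64 (adjusted p = 0.000392) and after median scaling 0.49 (adjusted p = 0.00626). The call was lost only in the fit of the 8 libraries alone, among 27 alternatives (adjusted p = 0.194).

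*IZH3* did not pass the test in *vph1∆*. Its TPM was 12.6, 16.8, 17.3 and 15.8 in *vph1∆* and 12.7, 13.8, 5.55 and 16.7 in wild type. The libraries of both strains overlapped, and the log2 fold change was 0.41, with a 95% interval of -0.064 to 0.89 (adjusted p = 0.244). Without wild-type replicate 3 it was 0.11 (adjusted p = 0.649). Of the 3 members that were not chosen by their values, *IZH1* and *IZH2* passed in *vph1∆*, where 4.87% of all genes did (4.42% higher). *IZH1*, *IZH2* and *IZH4* had ranges above wild type without overlap, as did 15.1% of all genes.

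**Figure D1:**
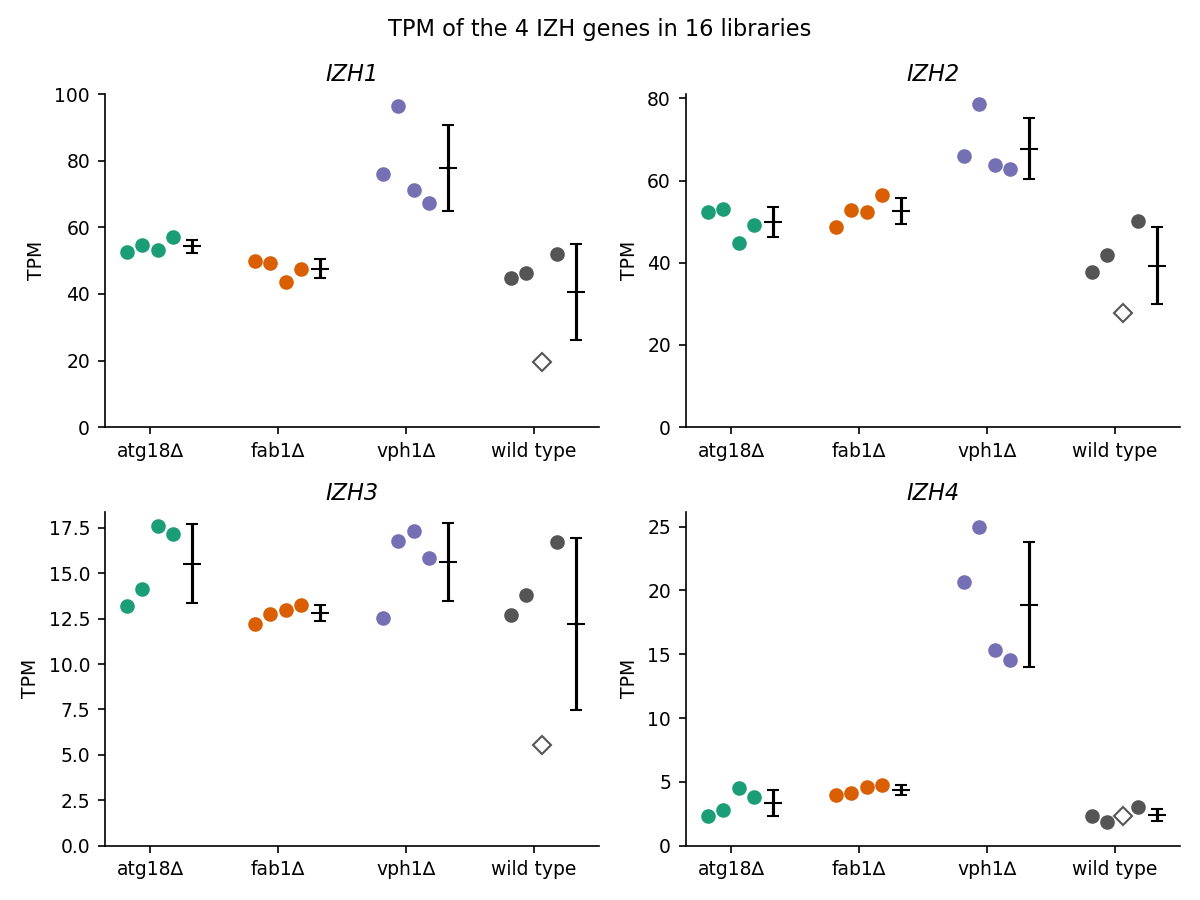
TPM (vertical axes, from 0) of *IZH1*, *IZH2*, *IZH3* and *IZH4* in the 4 libraries of each strain (points, replicates 1 to 4 from left to right), with the mean ± SD of the 4 at the right of each group. The open diamond is wild-type replicate 3, and *IZH4* lies between 14.5 and 25.0 TPM in *vph1∆*, against 1.88 to 3.00 TPM in wild type.

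*IZH4* was higher in *fab1∆* too, by less. Its TPM was 3.98, 4.14, 4.56 and 4.79 in *fab1∆*, against 2.36, 1.88, 2.35 and 3.00 TPM in wild type, without overlap. The log2 fold change was 0.67 (SE 0.18), and also 0.67 without wild-type replicate 3. It was 0.34 after median scaling, 0.33 with quantile normalization and 0.56 with median scaling without wild-type replicate 3. No test is given because these wild-type libraries also served to choose *IZH4*. *IZH2* had 48.7, 52.7, 52.2 and 56.4 TPM in *fab1∆*, against 37.7, 41.8, 27.7 and 50.2 TPM in wild type, and these ranges overlapped. Its log2 fold change was 0.44 (SE 0.15, limma adjusted p = 0.0383), and 0.28 without wild-type replicate 3 (adjusted p = 0.0271). The call was lost in 12 of 27 alternatives, among them median scaling (0.11, adjusted p = 0.415), the removal of wild-type replicate 1 (0.43, adjusted p = 0.0628) and the removal of any 1 *fab1∆* library (0.40 to 0.47). *IZH2* was the 1 of *IZH1*, *IZH2* and *IZH3* to pass, where 23.5% of all genes did (22.9% higher), and groups without overlap above wild type, as for *IZH4*, were found for 32.6% of genes.

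*IZH1* and *IZH3* did not pass in *fab1∆*. *IZH1* averaged 47.6 ± 2.85 TPM in *fab1∆* and 40.6 ± 14.4 TPM in wild type (SD, n = 4 each), with a log2 fold change of 0.31 and a 95% interval of -0.15 to 0.77 (adjusted p = 0.325). Without wild-type replicate 3 the value was -0.0010. *IZH3* averaged 12.8 ± 0.446 TPM in *fab1∆* and 12.2 ± 4.74 TPM in wild type, with a log2 fold change of 0.16 and a 95% interval of -0.32 to 0.64 (adjusted p = 0.655). Without that library it was -0.15 (adjusted p = 0.330), and with median scaling as well it was -0.26 and passed as a fall (adjusted p = 0.0115).

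In *atg18∆* cells 0 of the 3 members *IZH1*, *IZH2* and *IZH3* passed the limma test, where 0.0468% of all genes did. *IZH1* had 52.6, 54.6, 53.2 and 57.1 TPM in *atg18∆*, all above the highest wild-type value of 52.0 TPM, as were 4.89% of all genes, with a log2 fold change of 0.50 (95% interval 0.038 to 0.96). The adjusted p was 0.294 for each of the 3. The log2 fold change was 0.36 for *IZH2*, 0.41 for *IZH3* and 0.34 for *IZH4*, and the median of all genes was 0.27. *IZH4* had 2.30, 2.78, 4.54 and 3.84 TPM in *atg18∆*, which overlapped the wild-type range.

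**Figure D2:**
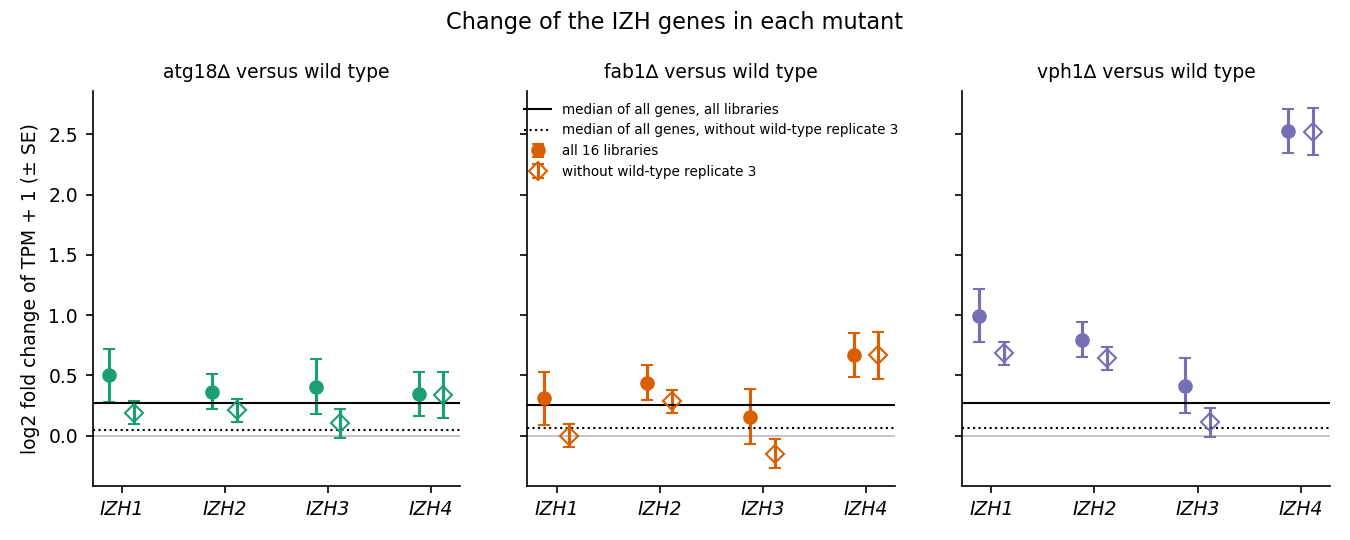
Log2 fold change of TPM + 1 against wild type (vertical axis, ± SE) for the 4 IZH genes in *atg18∆*, *fab1∆* and *vph1∆*, with all 16 libraries (filled circles) and without wild-type replicate 3 (open diamonds). Black lines are the medians of all genes tested, and *IZH4* lies at 2.53 in *vph1∆*, well above its values of 0.34 in *atg18∆* and 0.67 in *fab1∆*.

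The mutants were also compared with each other, which leaves wild-type cells out of the difference itself. *IZH4* averaged 18.9 TPM in *vph1∆*, 4.32 times its mean of 4.37 ± 0.369 TPM in *fab1∆* and 5.61 times its mean of 3.36 ± 1.02 TPM in *atg18∆* (SD, n = 4). The log2 fold changes were 1.86 and 2.19, and each ranked 2 of 6404. *IZH1* in *vph1∆* was above all *fab1∆* libraries (43.5 to 49.8 TPM) and all *atg18∆* libraries (52.6 to 57.1 TPM). Its log2 fold change was 0.69 against *fab1∆* (95% interval 0.22 to 1.15, adjusted p = 0.0779) and 0.50 against *atg18∆* (0.035 to 0.96, adjusted p = 0.646). *IZH2* differed by 0.36 against *fab1∆* (0.050 to 0.67, adjusted p = 0.189) and by 0.43 against *atg18∆* (0.12 to 0.74, adjusted p = 0.298). The spread in these tests is shared by the 4 strains, and without wild-type replicate 3 *IZH1* passed against *fab1∆* (adjusted p = 3.26e-05) and *atg18∆* (adjusted p = 0.00198), and *IZH2* as well (adjusted p = 0.00526 and 0.00502), where 41.1% of all genes passed against *fab1∆* and 12.1% against *atg18∆*. *IZH3* differed by 0.26 against *fab1∆* (-0.22 to 0.74, adjusted p = 0.609) and by 0.0083 against *atg18∆* (-0.47 to 0.49). With all libraries 0 of these 3 members passed the limma test in either comparison, where 6.29% of genes passed against *fab1∆* and 0.671% against *atg18∆*. Libraries of *IZH1*, *IZH2* and *IZH4* in *vph1∆* lay above all libraries of the other mutant in both comparisons, as did 13.4% of genes against *fab1∆* and 10.4% against *atg18∆*.

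Between *fab1∆* and *atg18∆* 0 of the 4 members passed the limma test, where 10.9% of genes did. *IZH4* differed by 0.33 (95% interval -0.061 to 0.71), *IZH2* by 0.073 (-0.24 to 0.38), *IZH1* by -0.19 (-0.65 to 0.27) and *IZH3* by -0.25 (-0.73 to 0.23). After median scaling *IZH3* had -0.30 and passed (adjusted p = 0.0162).

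TPM is divided by length, so levels of the 4 genes can be set beside each other. In *fab1∆* *IZH2* had 52.5 ± 3.15 TPM and *IZH1* 47.6 ± 2.85 TPM, with ranges that overlapped (48.7 to 56.4 and 43.5 to 49.8 TPM), so this order did not exceed their spread. In *vph1∆* *IZH4* averaged 18.9 ± 4.90 TPM and *IZH3* 15.6 ± 2.14 TPM, so these neighbours in the order did not differ beyond their spread. In wild type the order by mean TPM was *IZH1* (40.6 ± 14.4), *IZH2* (39.3 ± 9.35), *IZH3* (12.2 ± 4.74) and *IZH4* (2.39 ± 0.460) (SD, n = 4), and *IZH1* and *IZH2* did not differ beyond their spread. *IZH4* took 9.05 to 11.8% of the summed TPM of the family in *vph1∆*, against 1.91 to 3.78% in *atg18∆*, 3.47 to 4.02% in *fab1∆* and 1.81 to 4.26% in wild type. *IZH1* was 3.68 to 4.64 times as abundant as *IZH4* in *vph1∆*, against 8.32 to 24.6 times in wild type. The summed TPM of the family was 161 to 217 in *vph1∆* and 55.1 to 122 in wild type. The wild-type share of 4.26%, ratio of 8.32 and sum of 55.1 TPM were all those of replicate 3.

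Across the 16 libraries, which share their strains and include wild-type replicate 3, the levels of *IZH1* and *IZH2* had a Pearson r of 0.918 on the log2(TPM + 1) scale, as a description. *IZH3* and *IZH4* had the lowest r of the 6 pairs, 0.349. After removal of strain means, *IZH1* and *IZH2* had an r of 0.872, and of 0.676 without wild-type replicate 3. The genes most like *IZH4* over the 16 libraries, of the genes tested, were *YDR274C* (r = 0.944), *FRM2* (0.918), *ARG1* (0.904), *YOR338W* (0.898) and *DFP3* (0.886). *ARG1* encodes argininosuccinate synthetase, an enzyme of arginine synthesis, and averaged 146 TPM in *vph1∆* and 24.5 TPM in wild type. The genes most like *IZH1* were *YDR491C* (r = 0.992), *COS10* (0.984) and *FAA4* (0.976), a fatty acyl-CoA synthetase gene. Those most like *IZH2* were *YGL039W* (0.939), *RCH1* (0.937) and *YIP3* (0.934), and those most like *IZH3* were *HOL1* (0.994), *AVT4* (0.993) and *ARG81* (0.993). Most of these names changed without wild-type replicate 3, and the genes then found were named after their values were seen. Over those 15 libraries the genes most like *IZH4* were *YDR274C* (0.979), *ATF1* (0.952), *ARG1* (0.951), *PCL7* (0.946) and *YIP3* (0.946), and those most like *IZH1* were *YDR491C* (0.980), *OLE1* (0.973) and *COS10* (0.960). For *IZH2* they were *SOL3* (0.916), *FSF1* (0.907) and *YGL039W* (0.900), and for *IZH3* they were *SDD3* (0.987), *CSE1* (0.982) and *IRE1* (0.980).

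*YDR491C* is named as the neighbour of *IZH1* by its systematic name, is annotated on the opposite strand and has no RefSeq entry. Its TPM was 22.0, 29.1, 20.7 and 19.2 in *vph1∆*, against 14.8, 13.8, 5.62 and 16.1 in wild type. Its log2 fold change in *vph1∆* was 0.88 (limma adjusted p = 0.0339), and 0.57 without wild-type replicate 3 (adjusted p = 0.00249). It was the only one to pass among 9 genes beside the 4 members, where 4.87% of all genes passed. Without any 1 of the *vph1∆* libraries, or without *fab1∆* replicate 2 or 4, 0 of the 9 passed. The library kit keeps the strand, and whether strand was used in the quantification is not given in the sources used here. No coordinates of *YDR491C* were used here, so its overlap with *IZH1* was not checked. In *fab1∆* 1 of the 9, *MZM1*, a mitochondrial gene, passed, where 23.5% of all genes did. Its log2 fold change was 0.37 (limma adjusted p = 0.00624), with means of 70.4 TPM in *fab1∆* and 54.2 TPM in wild type. After median scaling *MZM1* had 0.044 (adjusted p = 0.809). In *atg18∆* 0 of the 9 passed, where 0.0468% of all genes did. The genes beside *IZH4*, the tRNA processing gene *TPT1* and the kinase gene *PKH2*, did not pass in any mutant.

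The fatty acid and low-oxygen list held 25 genes, chosen with earlier results known, among them the regulators *MGA2*, *SPT23*, *OAF1* and *PIP2* and the enzymes of fatty acid use. In *vph1∆* 5 rose and 0 fell, while 4.42% of all genes rose. *CRC1*, described below, is 1 of the 5. The list median was 0.31 and the median of all genes 0.27. *OLE1*, the desaturase that Mga2 activates, had 380, 537, 369 and 325 TPM in *vph1∆*, against 165, 171, 82.5 and 202 TPM in wild type, without overlap. It was higher by a log2 fold change of 1.42 (SE 0.21, adjusted p = 0.00103), and by 1.14 without wild-type replicate 3. *MGA2*, the regulator itself, had 11.7, 16.2, 13.8 and 11.2 TPM in *vph1∆*, against 5.42, 5.78, 3.03 and 7.94 TPM in wild type. Its log2 fold change was 1.16 (SE 0.20, adjusted p = 0.00336), and 0.95 without wild-type replicate 3. In the fit of *vph1∆* and wild type alone neither *OLE1* nor *MGA2* passed (adjusted p = 0.0713 and 0.113).

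**Figure D3:**
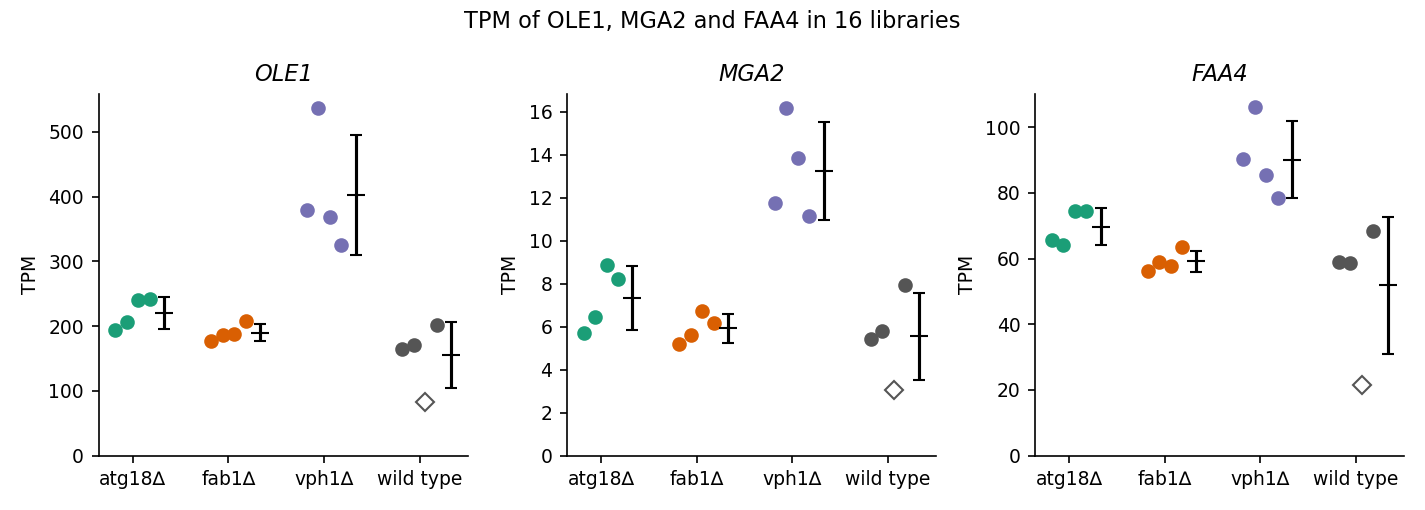
TPM (vertical axes, from 0) of *OLE1*, *MGA2* and *FAA4* in the 4 libraries of each strain (points, replicates 1 to 4 from left to right), with the mean ± SD at the right of each group and wild-type replicate 3 as an open diamond. *OLE1* lies between 325 and 537 TPM in *vph1∆*, against 82.5 to 202 TPM in wild type.

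*FAA4* rose by 0.90 in *vph1∆* (adjusted p = 0.0477), a call lost in 18 of 27 alternatives, and by 0.53 without wild-type replicate 3 (adjusted p = 0.00122). *CAT2* and *CRC1*, genes of carnitine transfer, rose by 0.62 (adjusted p = 0.00987) and 0.45 (adjusted p = 0.0115). After median scaling *CAT2* and *CRC1* had 0.31 and 0.15 and did not pass (adjusted p = 0.0731 and 0.574). *CRC1* averaged 1.01 TPM in *vph1∆*, 2.25 TPM in *fab1∆*, 0.532 TPM in *atg18∆* and 0.468 TPM in wild type, so it reached the minimum mean TPM of 1 only through *fab1∆*, and nothing is read from its calls. *SPT23*, the paralogue of *MGA2*, had 0.31 (adjusted p = 0.294). In *fab1∆* 10 of the 25 rose, with *CRC1* in that count, while 22.9% of all genes rose. The 10 held genes of peroxisomal fatty acid breakdown such as *POT1* (log2 fold change 1.09, adjusted p = 0.000511) and *SPS19* (1.11, adjusted p = 0.000282), which had 0.84 and 0.88 without wild-type replicate 3. *OLE1* and *MGA2* had 0.36 (adjusted p = 0.235) and 0.13 (adjusted p = 0.677) in *fab1∆*, and *MGA2* had -0.081 without wild-type replicate 3. In *atg18∆* 0 of the 25 passed the limma test, where 0.0468% of all genes did.

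The zinc homeostasis list held 21 genes, chosen in the same way. In *vph1∆* 1 rose and 0 fell, while 4.42% of all genes rose, with a list median of 0.37. This split did not hold under other settings, with 4 higher, 2 lower and a median of 0.11 without wild-type replicate 3, and 2 higher, 2 lower and a median of 0.065 after median scaling. In these 2 settings 28.6% and 19% of the list passed in either direction, against 14.7% and 8.09% of all genes. The 1 that rose with all libraries was *ATG41*, a gene of autophagy, at 0.71 (adjusted p = 0.00886). It did not pass after median scaling (0.40, adjusted p = 0.0858). *ZRT1* had 26.6, 32.7, 39.4 and 40.8 TPM in *vph1∆*, against 35.5, 40.7, 11.2 and 29.3 TPM in wild type, and the ranges overlapped. Its log2 fold change was 0.37 (adjusted p = 0.367), and -0.018 without wild-type replicate 3. *ZRT2*, the low-affinity transporter gene, had 27.7, 29.9, 33.7 and 33.5 TPM in *vph1∆*, against 49.9, 51.8, 21.8 and 53.5 TPM in wild type. The log2 fold change of -0.41 did not pass (adjusted p = 0.237), and was -0.71 without wild-type replicate 3, where *ZRT2* fell past the threshold (adjusted p = 0.000378). *COT1*, a vacuolar transporter gene, had 0.74 (adjusted p = 0.0607), and 0.45 without wild-type replicate 3 (adjusted p = 0.0140), and it also passed without wild-type replicate 1 or 4 (0.84 in both). *ZAP1*, the zinc regulator gene, had -0.027 (adjusted p = 0.905), and it fell past the threshold without wild-type replicate 3 (-0.28, adjusted p = 0.0426) and after median scaling (-0.33, adjusted p = 0.00975), while its sign turned without wild-type replicate 1, 2 or 4 or *vph1∆* replicate 1 (0.038 to 0.080). *ZRC1*, the main vacuolar zinc transporter gene, had 0.31 (adjusted p = 0.299), and -0.023 without wild-type replicate 3.

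In *fab1∆* 7 of the 21 rose and 0 fell, while 22.9% of all genes rose. Here too genes fell under other settings, with 7 higher and 2 lower without wild-type replicate 3, 6 higher and 4 lower after median scaling, and 7 higher and 5 lower with both. In these settings 42.9%, 47.6% and 57.1% of the list passed in either direction. The shares of all genes were 42.4%, 38.2% and 51.2%. *ZRC1* was among those that fell without wild-type replicate 3 (-0.38, adjusted p = 2.90e-05) and after median scaling (-0.38, adjusted p = 0.00485). *VEL1*, 1 of the 7, averaged 1.55 TPM in *fab1∆* and 0.685 TPM in wild type. It reached the minimum mean TPM only through *fab1∆*, and nothing is read from its call. *ZRT1* had 71.4, 73.9, 47.5 and 54.0 TPM in *fab1∆*, all above the highest wild-type value of 40.7 TPM, with a log2 fold change of 1.17 (SE 0.32, adjusted p = 0.0129). *YKE4*, a zinc transporter gene of the endoplasmic reticulum, rose by 1.01 (adjusted p = 0.00274), *URA10*, a gene of pyrimidine synthesis, by 0.91 (adjusted p = 0.000661) and *ZRT2* by 0.79 (adjusted p = 0.0141). Without wild-type replicate 3 *ZRT1* had 0.78 (adjusted p = 0.0133), *YKE4* 0.69 (adjusted p = 9.24e-07), *URA10* 0.71 (adjusted p = 2.88e-06) and *ZRT2* 0.49 (adjusted p = 0.00174). In the fit of *fab1∆* and wild type alone *ZRT1*, *YKE4* and *ZRT2* did not pass (adjusted p = 0.0699, 0.0528 and 0.101). In *atg18∆* 0 of the 21 passed the limma test, where 0.0468% of all genes did.

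**Figure D4:**
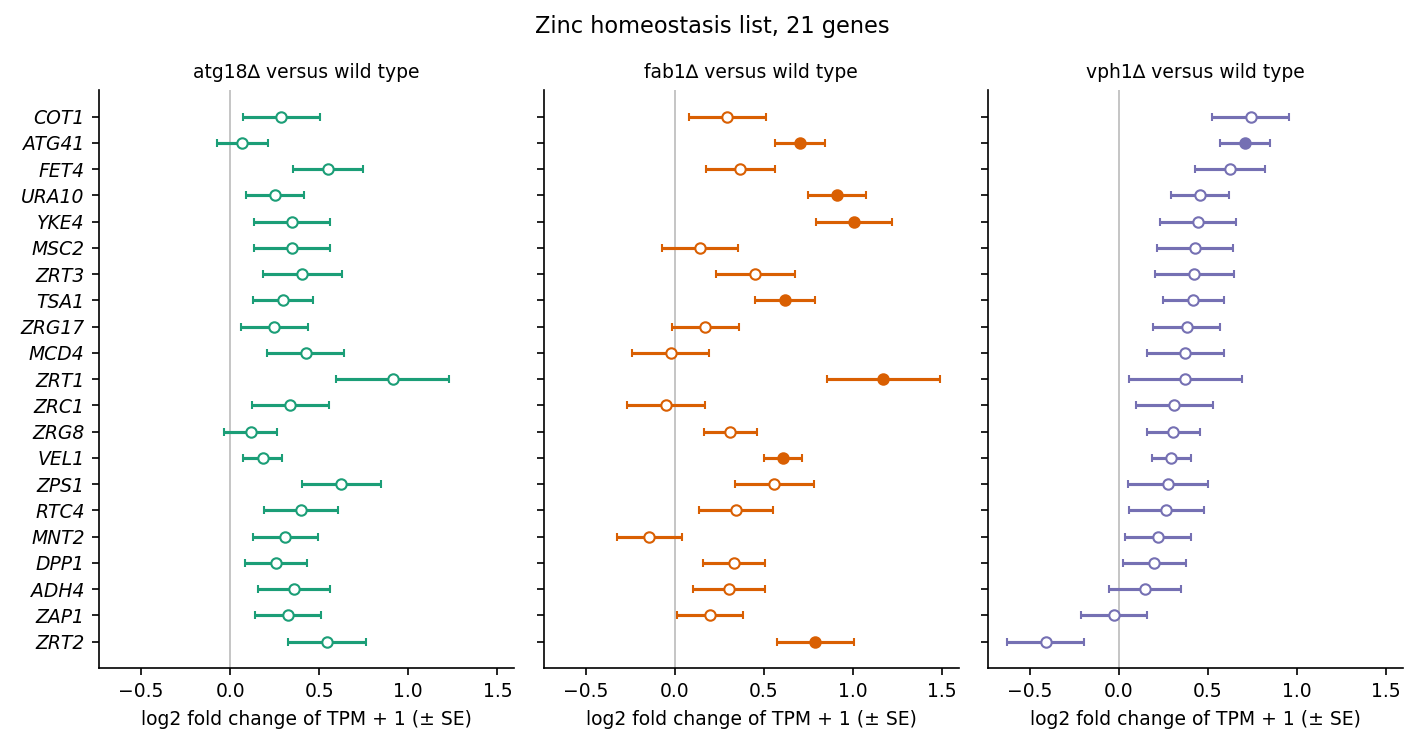
Log2 fold change of TPM + 1 against wild type (horizontal axes, ± SE) of the 21 zinc homeostasis genes in *atg18∆*, *fab1∆* and *vph1∆*, ordered from the highest to the lowest value in *vph1∆*. Filled points passed the adjusted threshold, 7 in *fab1∆*, with *VEL1* among them, and 1 in *vph1∆*. *ZRT2* lies at -0.41 in *vph1∆*, against 0.79 in *fab1∆*.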

How the data were processed

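The authors quantified transcripts with Salmon against the Ensembl SacCer3 transcriptome and deposited TPM values, 1 table per library. Salmon 0.8.1 is named in the submitters' processing notes, whereas the methods name another version, so the version used is not settled. No scaling between libraries is stated. The labels call the molecule polyA RNA, whereas the protocol describes libraries made without selection. Cultures were grown in duplicate on each of the separate days, which gave 4 replicates in all, so some replicates share a day. Reads per library are unknown.

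For the 6404 genes whose TPM averaged 1 or more, strain means of log2(TPM + 1) were estimated by limma 3.58.1 (R 4.3.3) over all 16 libraries, with a variance trend, two-sided tests and Benjamini-Hochberg adjustment (threshold 0.05). This replaces sleuth, which needs read counts. The members and the lists were chosen with earlier results of these data known. Of 6844 identifiers, 6011 matched RefSeq (R64). The genes named were taken from the members, deleted genes, genes beside members, and list genes called in a mutant with the regulators and transporters of the lists. The 5 genes most like *IZH4* and 3 most like each other member by Pearson r were also named. Not every gene beside a member or of the lists that met this rule is named. No values are given for *FET4*, a transporter gene of the zinc list. Fold changes printed against wild type were recomputed under each alternative that kept the gene. The exception is *ZRC1* in *fab1∆*, which is given only without wild-type replicate 3 and after median scaling. The alternatives were pseudocounts of 0.1 and 5, quantile normalization, median scaling, fits of only 2 strains, a minimum mean TPM of 10 or none, no variance trend, the replicate number as a block, a term for replicates 1 and 2 against 3 and 4, and each library left out. Median scaling without wild-type replicate 3 was added after the data were seen. By the replicate numbers of the labels, every one of 4 same-numbered pairs of *fab1∆* and wild type had a correlation of deviations over 0.1 (r of 0.13 to 0.25 over genes). That value was the cut for treating numbers as pairs, and 2 or 3 of 4 passed it for the other strain pairs. The wild-type library with the highest r was the same-numbered one for *fab1∆* replicates 1 and 4 (0.18 and 0.25). It was another one for *fab1∆* replicates 2 (0.25 with wild-type replicate 1) and 3 (0.22 with wild-type replicate 4). The cut therefore does not show that the numbers pair the libraries.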

Additional observations from a re-analysis of the deposited data

Results flagged for a closer look

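In groups of 4 libraries, a library was marked when its gap to the nearest other was a large share of the whole range of its group. The screen covered 212 groups (53 genes in 4 strains, some of them not named above). It marked 21, where chance marks about 1 in 20, and 0 of the 16 groups of IZH genes were marked. In all 14 wild-type groups the marked library was replicate 3, so these marks are not independent of each other. Values are the share of the range. In wild type these were *PKH1* (0.892), *PFA4* (0.866), *ZRT2* (0.888), *ZAP1* (0.844), *COT1* (0.967), *YDR274C* (0.902), *COS10* (0.842), *YGL039W* (0.897), *RCH1* (0.890), *YIP3* (0.898), *FOX2* (0.890), *POT1* (0.890), *SPS19* (0.857) and *MDH3* (0.921). In *fab1∆* these were *YDR491C* (0.921) and *TPT1* (0.960). In *atg18∆* these were *DFP3* (0.853), *RCH1* (0.916) and *ATG18* (1), and in *vph1∆* *RCH1* (0.891) and *VPH1* (0.946). The deleted genes *ATG18* and *VPH1* were near 0 TPM in these libraries, where the range itself is small.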

How the results depend on the processing

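Precision is limited by 4 libraries per strain and by wild-type replicate 3, since depth is unknown. For the IZH genes, counts below cover *IZH1*, *IZH2* and *IZH3*. *IZH4* is left out, as it is a description in comparisons with *vph1∆* or wild type. The count that passed in *atg18∆* stayed at 0 under all alternatives. In *fab1∆* it was 1 (*IZH2*) with all libraries or a minimum mean TPM of 10, 0 with median scaling and 1 (*IZH2*) without wild-type replicate 3. With median scaling without wild-type replicate 3 it was 1 (*IZH3*, lower). *IZH2* did not pass with quantile normalization, in the fit of 2 strains alone or without any 1 *fab1∆* library. In *vph1∆* it was 2 (*IZH1* and *IZH2*) with all libraries, with median scaling, without wild-type replicate 3 and with both. Neither gene passed in the fit of 2 strains alone, and *IZH1* did not pass without *vph1∆* replicate 2. For *vph1∆* against *fab1∆* it was 0 with all libraries, 3 with median scaling, 2 without wild-type replicate 3 and 3 with both. *IZH1*, *IZH2* and *IZH3* also passed there with quantile normalization or in the fit of 2 strains alone. For *vph1∆* against *atg18∆* these counts were 0, 2, 2 and 2, and *IZH1* and *IZH2* also passed with quantile normalization or in the fit of 2 strains alone. For *fab1∆* against *atg18∆* it was 1 with median scaling or quantile normalization and 2 in the fit of 2 strains alone or with median scaling without wild-type replicate 3. The cause was not tested.

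Counts of the lists include *VEL1* and *CRC1* wherever these were tested and called. The numbers of all genes called under most of these settings are given in the next paragraph. The zinc list in *fab1∆* had 3 called genes in the fit of 2 strains alone and 12 with median scaling without wild-type replicate 3 (7 higher, 5 lower). In *vph1∆* it had 2 with a pseudocount of 5, 4 with median scaling or quantile normalization, 0 in the fit of 2 strains alone, 6 with median scaling without wild-type replicate 3, and 1 to 6 with each library left out, with 6 without wild-type replicate 3. The fatty acid and low-oxygen list in *fab1∆* had 2 with a minimum mean TPM of 10, 6 with median scaling, 4 in the fit of 2 strains alone, and 10 higher and 3 lower with median scaling without wild-type replicate 3. In *vph1∆* it had 1 with a minimum mean TPM of 10, 0 in the fit of 2 strains alone and 3 to 6 with each library left out. Of the neighbouring genes, 2 passed in *fab1∆* without a filter or with median scaling without wild-type replicate 3, 0 in the fit of 2 strains alone, and 1 to 3 with each library left out. In *vph1∆* 0 passed in the fit of 2 strains alone and 0 to 2 with each library left out.

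Genes called, in the order of a minimum mean TPM of 10, scaling to the median, quantile normalization, the fit of 2 strains alone, median scaling without wild-type replicate 3, and the range with each library left out, were 1, 6, 7, 1, 8 and 3 to 6 in *atg18∆*, 912, 2444, 2496, 531, 3282 and 1063 to 2720 in *fab1∆*, and 165, 518, 553, 20, 833 and 114 to 944 in *vph1∆*. They were 191, 2044, 2240, 2777, 3139 and 257 to 2635 for *vph1∆* against *fab1∆*, 13, 314, 318, 417, 811 and 24 to 773 for *vph1∆* against *atg18∆*, and 382, 2577, 2818, 3190, 3592 and 488 to 3064 for *fab1∆* against *atg18∆*. With all libraries the counts were 3, 1507, 312, 403, 43 and 697. Median scaling split the calls into 955 higher and 1489 lower in *fab1∆*, against 1468 and 39 as deposited, and into 270 and 248 in *vph1∆*, against 283 and 29.

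With median scaling, quantile normalization, without wild-type replicate 3 and with both, *IZH1* in *fab1∆* had -0.020, -0.026, -0.0010 and -0.11, and *IZH3* in *fab1∆* had -0.17, -0.18, -0.15 and -0.26, with up to 0.46 and 0.33 with other libraries left out. The -0.26 of *IZH3* passed the test (adjusted p = 0.0115). *IZH2* in *fab1∆* against *atg18∆* had -0.0049 with quantile normalization. *IZH3* in *vph1∆* against *atg18∆* had -0.017 with median scaling, -0.019 with quantile normalization, -0.016 with median scaling without wild-type replicate 3, and -0.061 to 0.10 with each library left out. *ZRT1* in *vph1∆* had -0.018 to 0.57 with each library left out, the lowest without wild-type replicate 3, and -0.10 with median scaling as well. *MGA2* in *fab1∆* had -0.20 with median scaling, -0.18 with quantile normalization, -0.19 with median scaling without wild-type replicate 3, and -0.081 to 0.30 with each library left out. *OLE1* in *fab1∆* had -0.023, *SPT23* in *vph1∆* -0.030 and *ZRC1* in *vph1∆* -0.11 with median scaling without wild-type replicate 3. With each library left out, *ZRC1* in *vph1∆* had -0.023 to 0.45 and *ZAP1* in *vph1∆* -0.28 to 0.080, both lowest without wild-type replicate 3. The replicate block changed no call of *IZH1*, *IZH2* or *IZH3*, of which 0, 1 and 2 passed in *atg18∆*, *fab1∆* and *vph1∆*. With this block 1456 genes passed in *fab1∆*, and *IZH2* had 0.44 there (adjusted p = 0.0324).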
